A study of Mus musculus with 9 samples.

Results

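The genes described here are 36 mouse genes of protein folding and secretion in the endoplasmic reticulum (ER), taken by gene symbol from a table of 54532 genes. They were sorted by role into 15 chaperones and oxidoreductases, 4 genes of stress sensing, 8 of ER-associated degradation, 4 of the translocon, and 5 of collagen folding and ER exit. Their RNA was measured by RNA sequencing in 9 libraries of cardiosphere-derived cells from C57BL/6 mouse hearts, 3 libraries in each of 3 groups. pECDCs are untreated primary cells grown out of explants of young mouse hearts, and iECDCs are such cells at passage 30 after a lentivirus with a CMV promoter gave them human telomerase (hTERT) and puromycin selection removed the rest. The SB431542-treated libraries are labelled as iECDCs at passage 30 that received SB431542, which blocks the type I receptor of TGF-β (ALK5), for 3 days. The study's methods instead name an epithelial clone derived from pECDCs for this treatment, so whether the treated cells carried hTERT is not settled by these sources, and they are called SB431542-treated cells. Passage and hTERT also differ together between pECDCs and iECDCs, and the labels and the methods give different passages for pECDCs. The methods name fewer biological replicates per condition than the 3 libraries of each group here, while the study's figure legends give n = 3. Nothing states that libraries of a group came from separate animals or cultures, so p-values measure the spread between these libraries.

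Proteins bound for secretion enter the ER through the translocon, fold there with the help of chaperones such as BiP (Hspa5), and form disulfide bonds with protein disulfide isomerases. Proteins that do not fold are sent back to the cytosol for ER-associated degradation, and folded cargo leaves in COPII vesicles. When unfolded protein builds up, the sensors IRE1α (Ern1), ATF6 and PERK (Eif2ak3) start the unfolded protein response, in which Xbp1 mRNA is spliced and chaperone genes are transcribed. Matrix-producing mesenchymal cells depend on this system for procollagen, which needs its own chaperones and large carriers.

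Total counts were 19462912 to 23951392 in pECDC, 16568306 to 20204216 in iECDC and 17063137 to 20849975 in SB431542-treated libraries. In 2 groups 1 library stood apart from its replicates across all genes. The chi-square per degree of freedom between libraries was 24.9 and 30.8 for pairs with iECDC replicate 3 and 70.3 and 71.5 for pairs with SB431542 replicate 2, against 2.70 to 4.61 for the other pairs. SB431542 replicate 2 was the lowest library of its group for 30 of the 36 genes, where 43.2% of all tested genes had their lowest value in it. iECDC replicate 3 was the lowest of its group for 22 of the 36, against 40.6% of all tested genes. The calls of the 36 genes were therefore also computed without these libraries, and the counts by promoter element, the sums by role and the further gene lists were not. The mesenchymal markers Thy1, Eng, Vim, Pdgfra, Pdgfrb and Ddr2 were expressed in every group, and the endothelial Pecam1, Tek and Emcn, the haematopoietic Adgre1 and Cd3e and the cardiomyocyte Myh6, Actn2 and Nppa had at most 3 counts in every library, while other genes of these lists were detected and are given at the end.

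Promoter windows of the genes are shown first because several hold the elements through which ATF6 and XBP1 are known to act. RefSeq windows on GRCm38.p6, from 250 bases before to 50 bases after each gene's start, were found for 30 of the 36 genes. They were searched on both strands for the ER stress response element (ERSE, CCAAT and CCACG with 9 free bases between them), for its other form (ERSE-II, ATTGG and CCACG with 1 free base between them), and for the unfolded protein response element TGACGTGG (UPRE). ERSE and ERSE-II share the letters CCACG, and no searched motif lies whole within another. ERSE was present in 9 of the 30 genes (30%), namely Calr, Canx, Creld2, Derl3, Dnajc3, Hsp90b1, Hspa5, Pdia6 and Syvn1, and in 0.137% of all 27025 genes with a window. ERSE-II was present in Dnajb11 and Herpud1 (6.67%, against 0.0444% of all genes) and UPRE in Sec23a and Sec24d (6.67%, against 0.714%). A match describes the letters only. The 5 stretches below are shown 5′ to 3′ on the strand of the gene with the match in capitals. Dnajc3 and Syvn1 hold ERSE and were lower in iECDCs, Canx and Pdia6 hold ERSE and did not pass the edgeR test in any comparison, and Herpud1 holds ERSE-II and was lower in iECDCs. Canx lay close to the threshold between SB431542-treated cells and pECDCs, with a log2 fold change of -0.25 ± 0.08 (edgeR adjusted p = 0.0513), and it passed under 8 of the 15 alternatives described below.
Dnajc3 (chr14:118937802-118937870, plus strand): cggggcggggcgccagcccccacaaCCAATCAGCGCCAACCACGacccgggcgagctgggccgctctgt
Syvn1 (chr19:6046507-6046575, plus strand): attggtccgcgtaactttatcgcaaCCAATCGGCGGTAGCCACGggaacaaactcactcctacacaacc
Canx (chr11:50325775-50325843, minus strand): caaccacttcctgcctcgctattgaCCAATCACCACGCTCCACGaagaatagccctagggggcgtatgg
Pdia6 (chr12:17266466-17266534, plus strand): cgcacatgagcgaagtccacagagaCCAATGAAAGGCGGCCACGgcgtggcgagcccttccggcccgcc
Herpud1 (chr8:94386352-94386412, plus strand): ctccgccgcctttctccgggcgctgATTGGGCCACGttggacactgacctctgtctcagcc

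The genes spanned more than 3 orders of magnitude in level only when Derl3, which had very few counts, was included. Levels are given as FPKM, the deposited values of fragments per length of gene and depth of library, so that genes of different length can be compared. Serpinh1, the collagen chaperone HSP47, was the most abundant in pECDCs with 711 ± 5.71 FPKM (SD, n = 3). It was followed by the lectin chaperone Calr with 527 ± 10.9 FPKM, and these levels did not overlap. P4hb and Pdia3, both protein disulfide isomerases, came next with 327 ± 7.11 and 315 ± 8.83 FPKM, and the libraries of these neighbours overlapped. The sensors were far lower, with 5.003 ± 0.13 FPKM for Ern1 and 5.51 ± 0.27 FPKM for Eif2ak3. Derl3, a derlin of the degradation pathway, had only 1 to 7 counts in any library and was not tested. In the order of levels, 10 of 35 neighbouring pairs overlapped in pECDCs, 21 of 35 in iECDCs and 26 of 35 in SB431542-treated cells.

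**Figure D1:**
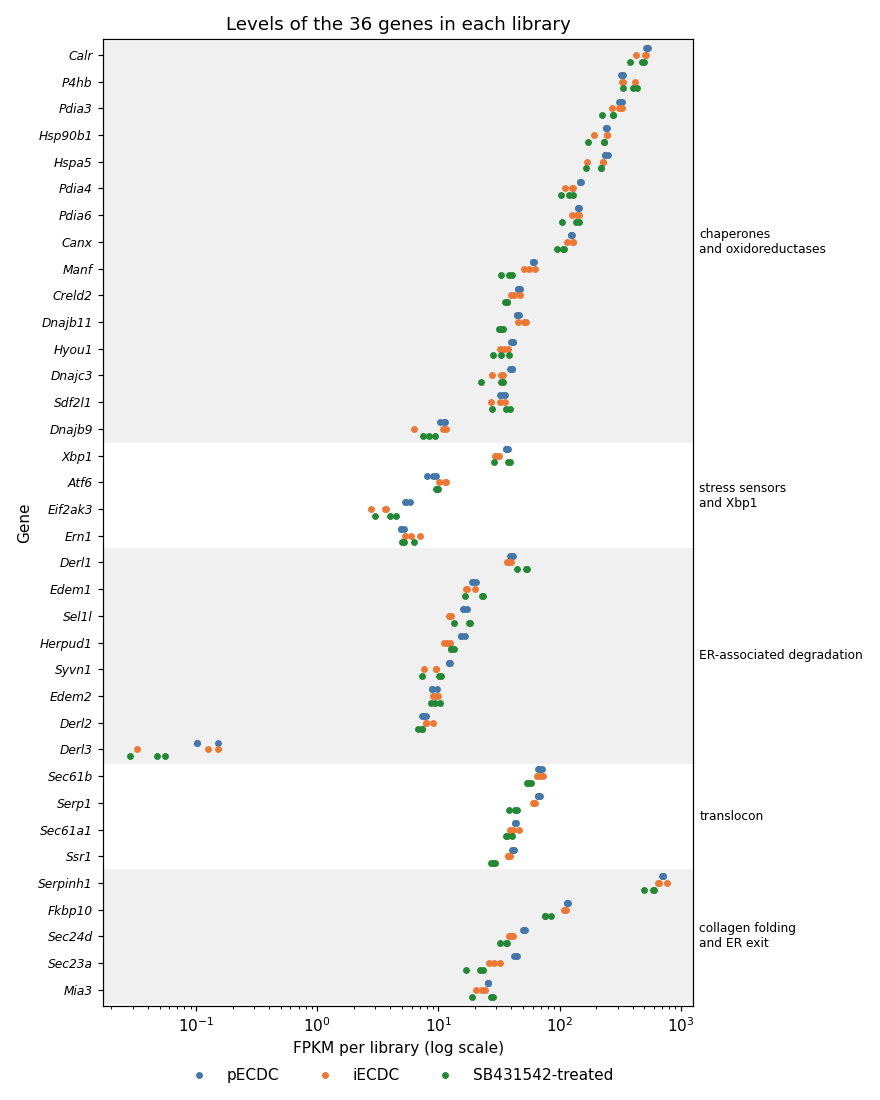
FPKM on a log scale (x axis) of each of the 36 genes (y axis, grouped by role), with 1 point for each of the 9 libraries coloured by group. The 3 groups lie close together for most genes, and the levels run from Serpinh1 at 498 to 763 FPKM down to Derl3 below 0.153 FPKM.

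The comparison of iECDCs with pECDCs asked how the primary and the immortalized cells differ. A minority of the ER genes differed, mostly downward: of 35 genes tested, 1 was higher (Atf6) and 9 were lower (Sec23a, Sec24d, Eif2ak3, Herpud1, Sel1l, Syvn1, Dnajc3, Xbp1 and Pdia4), and 25 did not pass the edgeR test at an adjusted p under 0.05. Among all 13752 genes tested, 7.21% were higher and 9.21% lower, while 2.86% and 25.7% of the ER genes were. The ER genes were chosen with earlier results of these data known, so such shares are descriptive here and below. The libraries of the groups did not overlap for 2 of the genes upward and 16 downward, where 20.7% and 19.2% of all tested genes had no overlap. The median log2 fold change was -0.12 over the ER genes and 0.00 over all genes, and the range among the ER genes was -0.73 to 0.29. In bulk RNA, fewer cells expressing a gene and less RNA per cell cannot be told apart. Without iECDC replicate 3, 2 genes were higher and 16 lower, while 15.5% and 16.2% of all genes were, and without any 1 of the pECDC libraries 5 to 6 were lower and 0 higher, while 4.82% to 4.95% of all genes were lower and 2.57% to 2.68% higher. Without iECDC replicate 2 the call of Atf6 was lost as well. Sec23a, Sec24d, Herpud1 and Eif2ak3 kept their call under all 15 alternatives.

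The comparison of SB431542-treated cells with iECDCs is the contrast that the labels give for the inhibitor. Here 2 genes were higher (Sel1l and Derl1), 7 were lower (Dnajb11, Manf, Serp1, Fkbp10, Ssr1, Sec23a and Sec61b), and 26 did not pass. Of all 13559 genes tested, 16.0% were higher and 14.0% lower, and of the ER genes 5.71% and 20%. The median log2 fold change was -0.10, against 0.00 over all genes. The median size of the change regardless of sign was 0.18 for the ER genes, smaller than the 0.34 of all genes. Without SB431542 replicate 2 the median log2 fold change of the ER genes was 0.02. Then 5 genes were higher and 7 lower, while 25.3% and 24.8% of all genes were. Without both libraries that stood apart it was -0.07. In that fit 6 genes were higher and 11 lower, and the shares of all genes rose to 32.6% and 31.9%. Without any 1 of iECDC replicates 1 and 2 and SB431542 replicates 1 and 3, 0 were higher and 2 to 3 lower, with 7.07% to 8.14% of all genes higher and 5.13% to 5.55% lower. Serp1 and Dnajb11 kept their call under all 16 alternatives.

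Between SB431542-treated cells and pECDCs, 1 gene was higher (Derl1), 14 were lower and 20 did not pass, where 17.9% of the 14015 genes tested were higher and 17.0% lower. Among the ER genes 2.86% were higher and 40.0% lower. This comparison shares its libraries with the other 2, so its counts are not independent of theirs. Without SB431542 replicate 2, 7 genes were higher and 22 lower, while 31.7% and 32.3% of all genes were. Without any 1 of the pECDC libraries 7 to 9 were lower and 0 higher, and without SB431542 replicate 1 or 3 the lower genes were 13 and 10. Of all genes 8.45% to 8.53% were lower without a pECDC library, and 10.9% and 11.6% without SB431542 replicate 1 or 3. Ssr1, Fkbp10, Sec24d, Serp1, Manf, Sec23a and Dnajb11 kept their call under all 15 alternatives.

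**Figure D2:**
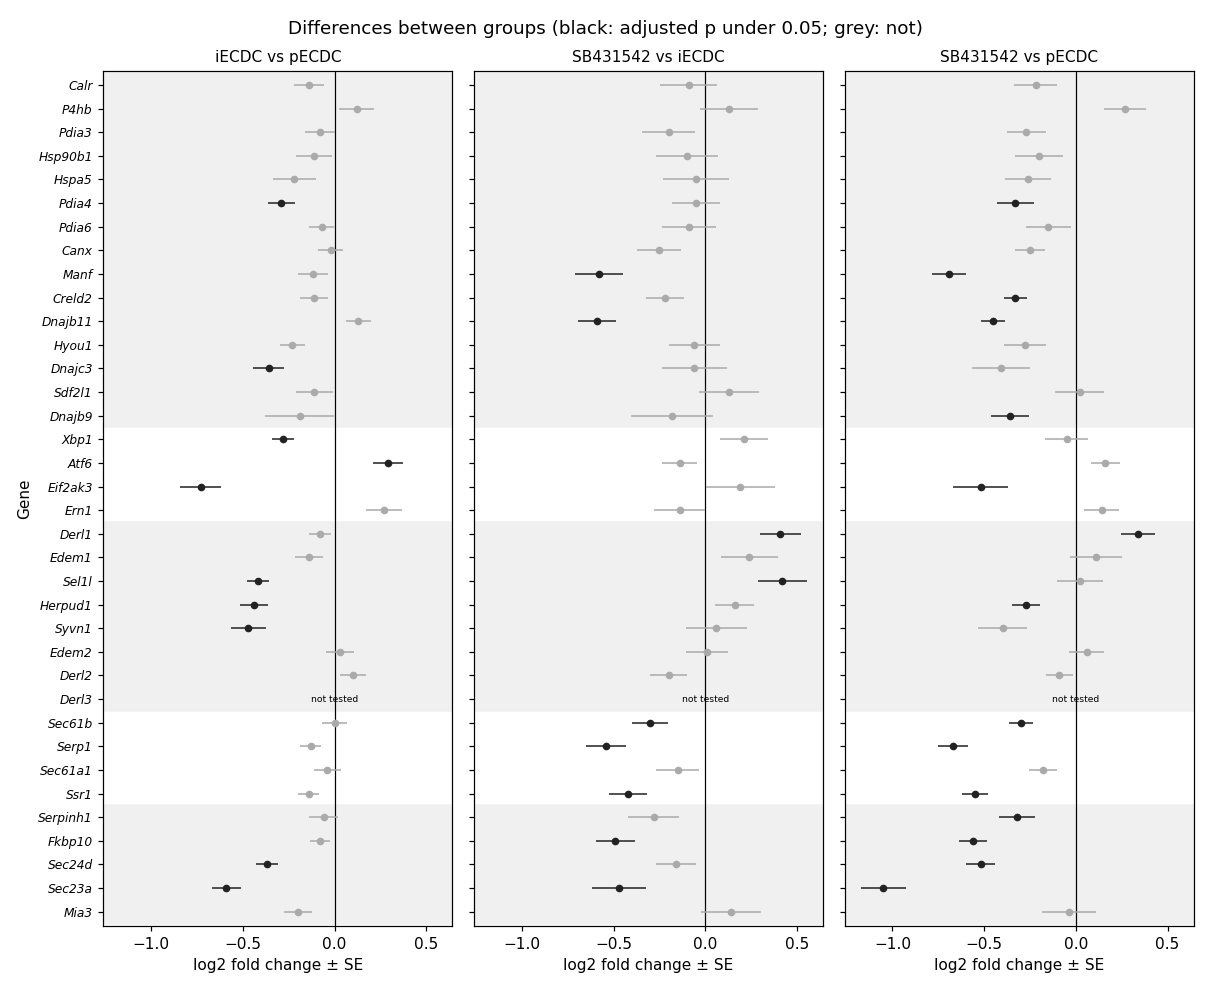
Log2 fold change (x axis, with its standard error as a bar) of each gene (y axis) in the 3 comparisons, in black where the adjusted p was under 0.05. Most black points lie to the left of 0, and Sec23a lies farthest left, at -1.05 between SB431542-treated cells and pECDCs.

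Genes of collagen folding and ER exit held the largest decrease of any comparison, that of Sec23a between SB431542-treated cells and pECDCs. In each of the other comparisons a gene of another role fell most. Sec23a and Sec24d encode parts of the inner COPII coat, which forms the vesicles that carry cargo out of the ER. Sec23a (chr12:58958383-59012017, minus strand, GRCm38) was at 44.3, 42.3 and 43.4 FPKM in pECDC replicates 1 to 3. It was at 28.7, 32.1 and 26.2 FPKM in iECDCs and at 21.9, 17.0 and 23.3 FPKM in SB431542-treated cells. All 3 groups were separate, with pECDCs highest and SB431542-treated cells lowest. The log2 fold change was -0.59 ± 0.08 (SE) from pECDCs to iECDCs (edgeR adjusted p = 0.00145) and -0.47 ± 0.15 from iECDCs to SB431542-treated cells (edgeR adjusted p = 0.0419), and the second call was lost under 6 of the 16 alternatives. From pECDCs to SB431542-treated cells it was -1.05 ± 0.12 (edgeR adjusted p = 0.00151).

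Sec24d (chr3:123267455-123365641, plus strand) had 51.6, 51.2 and 49.6 FPKM in pECDCs, 38.2, 40.8 and 39.9 FPKM in iECDCs and 36.8, 32.4 and 36.4 FPKM in SB431542-treated cells. It too was separate in all 3 groups. Its log2 fold change was -0.37 ± 0.06 in iECDCs against pECDCs (edgeR adjusted p = 0.00333) and -0.16 ± 0.11 in SB431542-treated cells against iECDCs (edgeR adjusted p = 0.283). Sec23a and Sec24d are the genes whose windows hold UPRE.

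Fkbp10 (FKBP65), a prolyl isomerase that folds procollagen, was at 116, 115 and 117 FPKM in pECDCs and 108, 109.8 and 113 FPKM in iECDCs. In SB431542-treated cells it was at 84.1, 75.8 and 75.0 FPKM, below every other library, with a log2 fold change against iECDCs of -0.49 ± 0.11 (edgeR adjusted p = 0.0126), a call that was lost under 4 of the 16 alternatives. Its reads could be shared with Nt5c3b, which overlaps it on the opposite strand. Serpinh1 was at 712, 705 and 716 FPKM in pECDCs, 654, 652 and 763 FPKM in iECDCs and 604, 498 and 591 FPKM in SB431542-treated cells. Only the last group stood below the others, with a log2 fold change of -0.32 ± 0.10 against pECDCs (edgeR adjusted p = 0.0419) and -0.28 ± 0.14 against iECDCs (edgeR adjusted p = 0.163), and the former call was lost under 8 of the 15 alternatives. Mia3 (TANGO1), which loads procollagen into carriers, passed in no comparison, with log2 fold changes of -0.20, 0.14 and -0.04. Without SB431542 replicate 2 it passed as higher in SB431542-treated cells. It was then at 0.30 against iECDCs (edgeR adjusted p = 0.0360) and 0.11 against pECDCs (edgeR adjusted p = 0.0267). Without iECDC replicate 3 it was lower in iECDCs than in pECDCs, at -0.13 (edgeR adjusted p = 0.0404).

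The translocon genes passed the test in no case between iECDCs and pECDCs when all libraries of these groups were kept. Without iECDC replicate 3, Ssr1, Serp1 and Sec61a1 passed as lower, at log2 fold changes of -0.13, -0.12 and -0.11, while 16.2% of all genes were lower. In SB431542-treated cells 3 of 4 were lower against iECDCs and the same 3 against pECDCs. Of all genes tested 14.0% and 17.0% were lower in these comparisons, and counts among 4 genes give no share to set beside them. Serp1 (RAMP4), which binds the translocon and shields new membrane proteins, was at 66.5, 66.1 and 68.4 FPKM in pECDCs and at 63.0, 61.3 and 60.7 FPKM in iECDCs. It was at 44.6, 38.3 and 43.1 FPKM in SB431542-treated cells, and the log2 fold change against iECDCs was -0.54 ± 0.11 (edgeR adjusted p = 0.00954). Serp1 overlaps Eif2a on the opposite strand, with which it could share reads. Ssr1, the alpha subunit of the translocon-associated protein complex, was at 41.9, 40.7 and 41.5 FPKM in pECDCs, 37.7, 38.6 and 37.7 FPKM in iECDCs and 28.3, 27.2 and 29.1 FPKM in SB431542-treated cells. The treated libraries were again the lowest, and the log2 fold change against iECDCs was -0.42 ± 0.10 (edgeR adjusted p = 0.0188), lost under 5 of the 16 alternatives. Sec61b, the beta subunit of the channel, fell by 0.30 ± 0.10 on the log2 scale in the same comparison (edgeR adjusted p = 0.0464), a call that was lost under 9 of the 16 alternatives. The channel-forming subunit Sec61a1 did not pass (log2 fold change -0.15 ± 0.12, edgeR adjusted p = 0.359).

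Among the chaperones and oxidoreductases 2 of 15 were lower in iECDCs than in pECDCs, 2 were lower in SB431542-treated cells than in iECDCs, and 5 were lower in SB431542-treated cells than in pECDCs, with none higher. These are 13.3%, 13.3% and 33.3%, beside 9.21%, 14.0% and 17.0% of all genes tested. Hspa5 (chr2:34771970-34777547, plus strand), the central Hsp70 chaperone of the ER and the usual readout of the unfolded protein response, was at 238, 237 and 249 FPKM in pECDCs and at 229.9, 229.7 and 167 FPKM in iECDCs. In SB431542-treated cells it was at 217, 164 and 219 FPKM. The low values were those of iECDC replicate 3 and SB431542 replicate 2, the libraries that stood apart. Hspa5 did not pass in the comparison of iECDCs with pECDCs (log2 fold change -0.22 ± 0.12, edgeR adjusted p = 0.238), of SB431542-treated cells with iECDCs (-0.05 ± 0.18, edgeR adjusted p = 0.847) or of SB431542-treated cells with pECDCs (-0.26 ± 0.13, edgeR adjusted p = 0.152). Without SB431542 replicate 2 the last of these passed, at -0.14 (edgeR adjusted p = 0.0086), and without a filter on low counts the first did, at -0.23 (edgeR adjusted p = 0.0303). Over all 15 alternatives the edgeR, DESeq2 or limma adjusted p ranged from 0.0086 to 0.306 in the last comparison and from 0.0303 to 0.464 in the first.

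Manf and Dnajb11 were the chaperone genes that fell in SB431542-treated cells against iECDCs. Manf, a secreted ER stress-inducible factor, was at 61.8, 59.9 and 59.9 FPKM in pECDCs, 62.4, 55.6 and 50.6 FPKM in iECDCs and 38.4, 32.9 and 40.5 FPKM in SB431542-treated cells. The treated libraries lay below all others and the pECDC and iECDC libraries overlapped. The log2 fold change against iECDCs was -0.58 ± 0.13 (edgeR adjusted p = 0.0140) and lost its call under 3 of the 16 alternatives. Manf overlaps Rbm15b and Dcaf1, with which it could share reads. Dnajb11 (ERdj3), a cochaperone of Hspa5, was at 44.4, 44.5 and 45.9 FPKM in pECDCs, 52.5, 50.5 and 45.7 FPKM in iECDCs and 33.7, 31.4 and 33.0 FPKM in SB431542-treated cells. Its log2 fold change against iECDCs was -0.59 ± 0.10 (edgeR adjusted p = 0.00609), with no overlap.

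Dnajc3 (p58IPK), an inhibitor of PERK and cochaperone of Hspa5, was at 38.8, 40.5 and 40.3 FPKM in pECDCs, 32.5, 34.2 and 27.6 FPKM in iECDCs and 32.8, 22.4 and 34.3 FPKM in SB431542-treated cells. Its log2 fold change in iECDCs against pECDCs was -0.36 ± 0.08 (edgeR adjusted p = 0.0202). Between SB431542-treated cells and pECDCs it was -0.41 ± 0.16 (edgeR adjusted p = 0.0840), with no overlap, and passed under 4 of the 15 alternatives. Pdia4 (ERp72) was at 146, 146 and 151 FPKM in pECDCs, 126, 129 and 110.3 FPKM in iECDCs and 129, 102 and 119 FPKM in SB431542-treated cells. It was lower than in pECDCs in both other groups, by log2 fold changes of -0.29 ± 0.07 (edgeR adjusted p = 0.0256) in iECDCs and -0.33 ± 0.10 (edgeR adjusted p = 0.0410) in SB431542-treated cells. The calls of Dnajc3 and Pdia4 in iECDCs were lost with all 9 libraries in the fit and without any 1 of the pECDC libraries, and that of Pdia4 in SB431542-treated cells was lost under 5 of the 15 alternatives, among them each pECDC library and SB431542 replicate 3 left out. Creld2 and the Hspa5 cochaperone Dnajb9 (ERdj4) passed only between SB431542-treated cells and pECDCs, with log2 fold changes of -0.33 ± 0.06 (edgeR adjusted p = 0.00761) and -0.36 ± 0.11 (edgeR adjusted p = 0.0349). The call of Dnajb9 was lost under 6 of the 15 alternatives and that of Creld2 under 1. Creld2 and Dnajb9 were not tested for a difference between the comparisons. The other 9 chaperones, namely Hsp90b1, Calr, Canx, Pdia3, Pdia6, P4hb, Sdf2l1, Hyou1 and Hspa5, passed in no comparison. Their log2 fold changes ranged from -0.28 for Hyou1 to 0.27 for P4hb, both between SB431542-treated cells and pECDCs. Several of them passed against pECDCs without SB431542 replicate 2, a fit in which more of all genes were called as well. Besides Hspa5, Calr, Pdia3, Canx and Hyou1 were then lower, at log2 fold changes of -0.11, -0.18, -0.19 and -0.18. Sdf2l1 was then higher, at 0.15 (edgeR adjusted p = 0.0475). Hyou1 lay close to the threshold in iECDCs against pECDCs, at -0.23 ± 0.07 (edgeR adjusted p = 0.0562). It passed there under 5 of the 15 alternatives, and its libraries did not overlap. P4hb, which is also the beta subunit of prolyl 4-hydroxylase, was at 327, 320.0 and 334 FPKM in pECDCs and at 436, 333 and 403 FPKM in SB431542-treated cells. It overlapped between these groups through SB431542 replicate 2 alone, and without that library it was higher by 0.37 on the log2 scale (edgeR adjusted p = 6.8e-07, against 0.110 with all 3 and up to 0.289 over the alternatives).

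Of the 4 genes of stress sensing, 1 was higher and 2 were lower in iECDCs than in pECDCs. None passed between SB431542-treated cells and iECDCs, and 1 was lower between SB431542-treated cells and pECDCs. Of all genes tested 7.21% were higher and 9.21% lower in the first comparison. In the second 16.0% were higher and 14.0% lower, and in the third 17.9% and 17.0%. Counts among 4 genes give no share to set beside these. Eif2ak3 (PERK; chr6:70844515-70905245, plus strand), the kinase that slows translation under ER stress, had the largest decrease of the ER genes between iECDCs and pECDCs. It was at 5.30, 5.82 and 5.41 FPKM in pECDCs, 3.67, 3.62 and 2.75 FPKM in iECDCs and 4.47, 2.97 and 3.995 FPKM in SB431542-treated cells. The pECDC libraries lay above all others, with a log2 fold change of -0.73 ± 0.11 in iECDCs (edgeR adjusted p = 0.00314) and -0.52 ± 0.15 in SB431542-treated cells (edgeR adjusted p = 0.0346). The latter call was lost under 5 of the 15 alternatives, among them each pECDC library and SB431542 replicate 3 left out. Atf6, the sensor that is cleaved in the Golgi to become a transcription factor, was at 9.06, 9.47 and 7.97 FPKM in pECDCs and 10.02, 11.2 and 11.5 FPKM in iECDCs. It was higher in iECDCs by 0.29 ± 0.08 on the log2 scale (edgeR adjusted p = 0.0438), and this call was lost under 8 of the 15 alternatives. In SB431542-treated cells Atf6 was at 9.96, 9.81 and 9.62 FPKM. Xbp1, the transcription factor whose mRNA IRE1α splices, was at 35.8, 35.9 and 37.4 FPKM in pECDCs, 30.0, 29.4 and 31.6 FPKM in iECDCs and 38.6, 28.8 and 37.3 FPKM in SB431542-treated cells. Its log2 fold change in iECDCs against pECDCs was -0.28 ± 0.06 (edgeR adjusted p = 0.0137), a call that was lost with all 9 libraries in the fit and without any 1 of the pECDC libraries. Between SB431542-treated cells and iECDCs Xbp1 did not pass, at 0.21 ± 0.13 (edgeR adjusted p = 0.244). Without SB431542 replicate 2 it passed there as higher, at 0.33 (edgeR adjusted p = 0.0114). Gene counts do not separate its spliced from its unspliced form. Ern1 passed in no comparison, although its iECDC libraries (5.34, 5.90 and 7.06 FPKM) lay above its pECDC libraries (5.15, 4.94 and 4.92 FPKM). Without iECDC replicate 1 it passed as higher in iECDCs, at 0.36 (edgeR adjusted p = 0.0331).

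The degradation genes were lower in iECDCs than in pECDCs for 3 of 7 tested and higher in SB431542-treated cells than in iECDCs for 2 of 7. These are 42.9% and 28.6%, beside 9.21% lower and 16.0% higher of all genes tested. Sel1l (chr12:91806043-91849157, minus strand), the adaptor of the ubiquitin ligase HRD1, was at 17.3, 16.3 and 15.9 FPKM in pECDCs, 12.4, 12.7 and 12.2 FPKM in iECDCs and 18.2, 13.5 and 17.96 FPKM in SB431542-treated cells. The iECDC libraries lay below those of both other groups, which overlapped. The log2 fold change was -0.42 ± 0.06 from pECDCs to iECDCs (edgeR adjusted p = 0.00212) and 0.42 ± 0.13 from iECDCs to SB431542-treated cells (edgeR adjusted p = 0.0461), and both values rest on the same iECDC libraries. The second call was lost under 8 of the 16 alternatives. Syvn1, which encodes HRD1 itself, was at 12.4, 12.1 and 12.3 FPKM in pECDCs, 9.62, 9.61 and 7.58 FPKM in iECDCs and 10.03, 7.33 and 10.4 FPKM in SB431542-treated cells. Its log2 fold change in iECDCs was -0.47 ± 0.10 (edgeR adjusted p = 0.0107), a call that was lost with all 9 libraries in the fit and without pECDC replicate 1 or 3. Between SB431542-treated cells and pECDCs it was -0.40 ± 0.14 (edgeR adjusted p = 0.0578), with no overlap, and passed under 4 of the 15 alternatives. Syvn1 overlaps Mrpl49 on the opposite strand, with which it could share reads.

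Herpud1, a stress-induced membrane protein that recruits the HRD1 complex, was at 15.5, 15.4 and 16.59 FPKM in pECDCs, 12.4, 11.03 and 11.8 FPKM in iECDCs and 13.5, 12.7 and 12.8 FPKM in SB431542-treated cells. The 3 groups were separate, with log2 fold changes of -0.44 ± 0.08 from pECDCs to iECDCs (edgeR adjusted p = 0.00521) and 0.16 ± 0.11 from iECDCs to SB431542-treated cells (edgeR adjusted p = 0.293). Derl1, a membrane protein of the retrotranslocation channel, was at 38.8, 40.0 and 41.5 FPKM in pECDCs, 38.3, 36.9 and 39.4 FPKM in iECDCs and 54.2, 44.5 and 52.3 FPKM in SB431542-treated cells. It was higher in SB431542-treated cells by 0.41 ± 0.11 on the log2 scale against iECDCs (edgeR adjusted p = 0.0290) and by 0.34 ± 0.09 against pECDCs (edgeR adjusted p = 0.0297). Each of these 2 calls was lost when 1 library other than SB431542 replicate 2 or iECDC replicate 3 was left out. Edem1, Edem2 and Derl2 passed in no comparison, with log2 fold changes between -0.20 and 0.24. Without SB431542 replicate 2, Edem1 passed as higher in SB431542-treated cells. It was then at 0.38 against iECDCs (edgeR adjusted p = 0.0118) and 0.26 against pECDCs (edgeR adjusted p = 6.5e-05). Without both libraries that stood apart it was at 0.46 against iECDCs (edgeR adjusted p = 7.7e-07). Without iECDC replicate 3 it was lower in iECDCs than in pECDCs, at -0.22 (edgeR adjusted p = 0.00185).

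**Figure D3:**
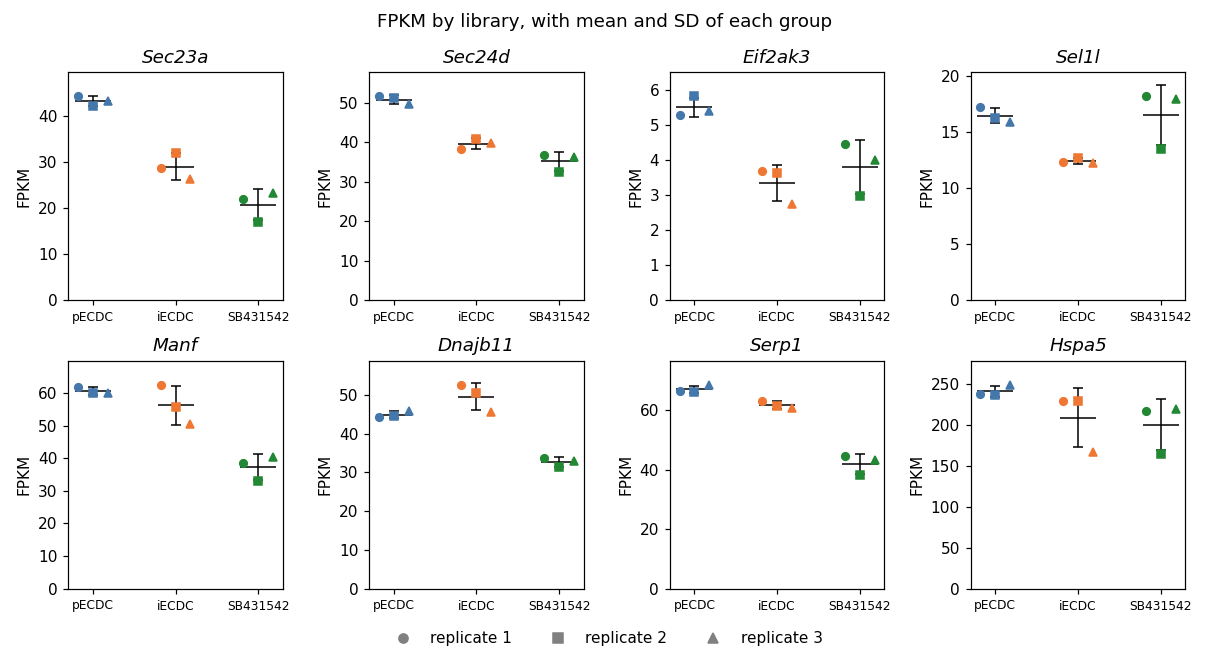
FPKM (y axis, starting at 0) of 8 of the genes in each library, with the mean as a line and the SD as a bar in each group of 3. Sec23a steps down from pECDCs to iECDCs to SB431542-treated cells, Manf, Dnajb11 and Serp1 are lowest in SB431542-treated cells, and Sel1l is lowest in iECDCs.

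Summed by role, the translocon genes were at 215 to 224 FPKM in pECDCs, 205 to 213 FPKM in iECDCs and 159 to 167 FPKM in SB431542-treated cells. The 3 ranges did not overlap. The genes of collagen folding and ER exit summed to 939 to 952 FPKM, 853 to 963 FPKM and 642 to 775 FPKM. Here too the treated libraries lay below all others, while pECDCs and iECDCs overlapped. Most of each of these sums is Serpinh1, which alone was at 705 to 716 FPKM, 652 to 763 FPKM and 498 to 604 FPKM. The genes of stress sensing summed to 55.3 to 56.1 FPKM, 49.1 to 52.9 FPKM and 47.8 to 58.1 FPKM. The degradation genes summed to 119.7 to 122 FPKM, 105 to 109 FPKM and 109.8 to 136 FPKM, where the iECDC libraries were lowest. The chaperones summed to 2323 to 2364 FPKM, 2057 to 2305 FPKM and 1759 to 2256 FPKM, and the lowest value of each of the last 2 groups was that of the library that stood apart. All 36 genes together took 1.28% to 1.29% of the counts in pECDCs, 1.06% to 1.20% in iECDCs and 0.929% to 1.18% in SB431542-treated cells.

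**Figure D4:**
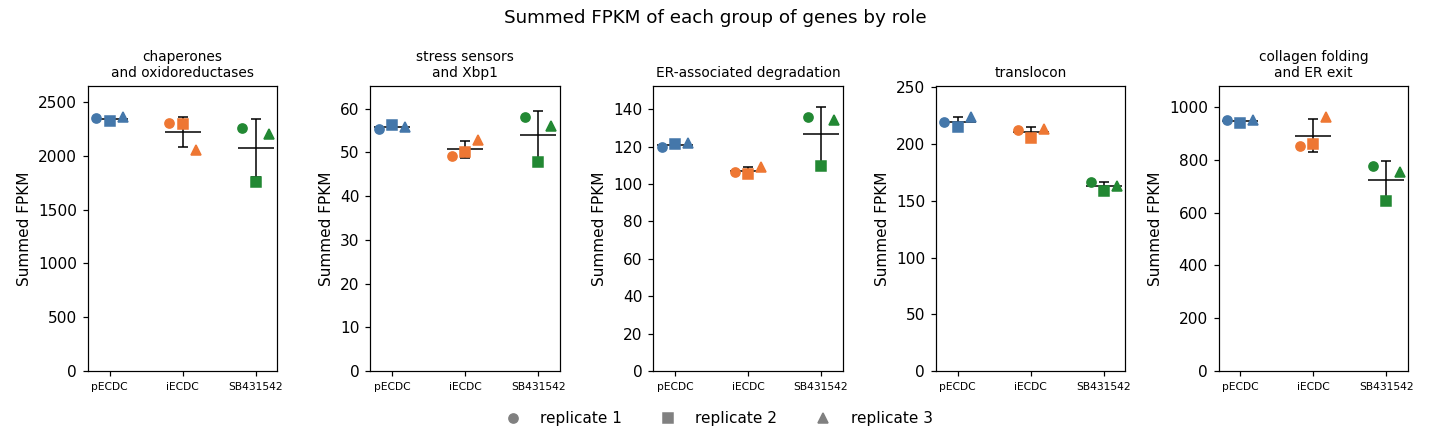
Summed FPKM (y axis, starting at 0) of the genes of each role in each library, with the mean as a line and the SD as a bar in each group of 3. The SB431542-treated sums for the translocon (159 to 167 FPKM) and for collagen folding and ER exit (642 to 775 FPKM) lie below all other libraries. Serpinh1 makes up most of the sum for collagen folding and ER exit. SB431542 replicate 2 is the lowest treated library in every panel.

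The calls were also counted by promoter element. Of the 8 tested genes that hold ERSE, 0 were higher and 2 lower in iECDCs than in pECDCs, none passed between SB431542-treated cells and iECDCs, and 1 was lower between SB431542-treated cells and pECDCs. Of the 21 genes whose window lacks ERSE, 0 were higher and 7 lower, 1 was higher and 5 were lower, and 0 were higher and 11 lower in these comparisons. Of the 2 genes with ERSE-II, 1 was lower in iECDCs against pECDCs, 1 in SB431542-treated cells against iECDCs and 2 in SB431542-treated cells against pECDCs. Of the 2 genes with UPRE, 2, 1 and 2 were lower. Among all genes tested 9.21%, 14.0% and 17.0% were lower in these comparisons, and counts of 2 genes give no share to set beside them.

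Genes around the 36 in the secretory pathway were counted over 97 tested genes of 5 further lists. In iECDCs against pECDCs 2 were higher and 15 lower, with a median log2 fold change of -0.08. In SB431542-treated cells 3 were higher and 31 lower against iECDCs, with a median of -0.24, and 6 were higher and 52 lower against pECDCs, with a median of -0.29. The lower genes were 15.5%, 32.0% and 53.6% of the 97, beside 9.21%, 14.0% and 17.0% of all genes tested. The higher genes were 2.06%, 3.09% and 6.19%, beside 7.21%, 16.0% and 17.9%. These lists were chosen with earlier results of these data known, so the shares describe the lists and test nothing. The other genes of COPII and cargo exit were lower for 6 of 20 in iECDCs against pECDCs, for 7 of 20 in SB431542-treated cells against iECDCs and for 14 of 20 in SB431542-treated cells against pECDCs, with none higher. Among them Creb3l2, a transcription factor known to activate Sec23a, was at 28.4, 28.6 and 27.9 FPKM in pECDCs, 18.6, 20.2 and 22.4 FPKM in iECDCs and 13.3, 7.96 and 11.9 FPKM in SB431542-treated cells. Its 3 groups were separate, with log2 fold changes of -0.49 ± 0.07 (edgeR adjusted p = 0.00283) and -0.87 ± 0.19 (edgeR adjusted p = 0.0118). Sec13, of the outer COPII coat, fell by 0.73 ± 0.10 on the log2 scale in SB431542-treated cells against iECDCs (edgeR adjusted p = 0.00251).

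The remaining genes of the translocon, signal peptidase and oligosaccharyltransferase were lower for 12 of 23 in SB431542-treated cells against iECDCs, with none higher, and for 2 of 23 in iECDCs against pECDCs. These are 52.2% in the former comparison, beside 14.0% of all genes tested, and 8.70% in the latter, near the 9.21% of all genes. The oligosaccharyltransferase subunit Ost4 had a log2 fold change of -0.72 ± 0.13 (edgeR adjusted p = 0.00707) in the former comparison and Dad1 of the same enzyme one of -0.52 ± 0.09 (edgeR adjusted p = 0.00556). Among other folding enzymes 1 of 21 was higher and 0 lower in iECDCs against pECDCs, the peroxiredoxin Prdx4, with a log2 fold change of 0.43 ± 0.08 (edgeR adjusted p = 0.00737). In SB431542-treated cells against iECDCs 3 of 21 were lower, led by Pdia5 at -0.97 ± 0.12 (edgeR adjusted p = 0.00166). The shares of this list, 4.76% higher in the former and 14.3% lower in the latter, lay near the 7.21% and 14.0% of all genes tested. Other degradation genes were split, with 1 higher and 1 lower of 16 in iECDCs against pECDCs and 3 higher and 4 lower in SB431542-treated cells against iECDCs. Os9, a lectin that hands glycoproteins to the HRD1 complex, was higher in the latter by 0.72 ± 0.21 (edgeR adjusted p = 0.0328), and Edem3 was lower in the former by a log2 fold change of -0.54 ± 0.11 (edgeR adjusted p = 0.0088).

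The list of collagen modification, which also holds the collagen prolyl hydroxylase partner Crtap and 3 KDEL receptors that retrieve ER proteins, had lower levels for 6 of 17 tested in iECDCs against pECDCs and for 5 of 17 in SB431542-treated cells against iECDCs, with none higher. The lower genes were 35.3% and 29.4% of this list, beside 9.21% and 14.0% of all genes tested. Kdelr2 and Kdelr3, both KDEL receptors, were among the lower genes in both comparisons. Fkbp14 was at 13.5, 13.1 and 13.5 FPKM in pECDCs and 8.48, 9.37 and 6.45 FPKM in iECDCs, a log2 fold change of -0.73 ± 0.12 (edgeR adjusted p = 0.00397). Plod2, a collagen lysyl hydroxylase, had one of -0.65 ± 0.17 in SB431542-treated cells against iECDCs (edgeR adjusted p = 0.0251). The genes of secreted matrix, the cargo of this pathway, were counted last. In iECDCs against pECDCs 4 of 9 matrix genes were lower and none higher, led by the collagen gene Col3a1 at -0.89 ± 0.12 (edgeR adjusted p = 0.00182). The lower genes were 44.4% of this list, beside 9.21% of all genes tested. In SB431542-treated cells against iECDCs 3 of 9 were higher and 1 lower, with Col6a1 at 2.02 ± 0.26 (edgeR adjusted p = 0.00184) and Col5a2 at -1.83 ± 0.15 (edgeR adjusted p = 0.000395). These are 33.3% and 11.1%, beside 16.0% higher and 14.0% lower of all genes tested. Of 8 genes downstream of PERK, 0 were higher and 0 lower in iECDCs against pECDCs, and 2 were higher in SB431542-treated cells against iECDCs, Atf3 and Trib3, which are below the level set for naming and stood at no more than 4.70 FPKM.

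Other expression moved with the groups, and its part in the results on the ER genes was not tested. Of 8 TGF-β responsive genes 6 were lower and 1 higher in SB431542-treated cells against iECDCs. Ctgf, which encodes a matricellular growth factor, was at 431, 442 and 459 FPKM in iECDCs and 27.4, 70.9 and 30.7 FPKM in SB431542-treated cells. SB431542 replicate 2 was the treated library with the highest Ctgf. In iECDCs against pECDCs 3 of the 8 were higher and 1 lower. The 6 mesenchymal markers summed to 1123 to 1158 FPKM in pECDCs, 1324 to 1561 FPKM in iECDCs and 954 to 1081 FPKM in SB431542-treated cells. The 7 epicardial markers summed to 39.3 to 41.4, 48.5 to 57.4 and 65.6 to 68.2 FPKM, so that both lists differed between the groups. In SB431542-treated cells against iECDCs 3 mesenchymal genes were higher and 1 lower, and 3 of 5 epicardial genes tested were higher. In iECDCs against pECDCs 2 mesenchymal genes were higher and 3 lower, and 1 of 4 epicardial genes tested was higher and 1 lower. Of all genes tested, 16.0% were higher and 14.0% lower in SB431542-treated cells against iECDCs, and 7.21% and 9.21% in iECDCs against pECDCs. The endothelial, haematopoietic and cardiomyocyte lists were low, with sums of at most 0.165 FPKM for 5 endothelial, 2.06 FPKM for 5 haematopoietic and 1.68 FPKM for 5 cardiomyocyte genes. The cardiomyocyte troponin gene Tnnt2 was at 0.437 to 0.654 FPKM in pECDCs, 1.1165 to 1.6742 FPKM in iECDCs and 0.0429 to 0.250 FPKM in SB431542-treated cells. It was higher in iECDCs than in pECDCs (log2 fold change 1.36 ± 0.19, edgeR adjusted p = 0.00202) and lower in SB431542-treated cells than in iECDCs (-3.07 ± 0.48, edgeR adjusted p = 0.00378). The macrophage gene Cd68 was lower in SB431542-treated cells than in pECDCs (-0.86 ± 0.22, edgeR adjusted p = 0.0220), at no more than 2.04 FPKM. The 4 plasma cell genes summed to 72.2 to 75.8, 57.3 to 71.6 and 69.2 to 84.8 FPKM. Almost all of this was the syndecan gene Sdc1, which many adherent cells express and which passed in no comparison, and Jchain, Mzb1 and Prdm1 had at most 3 counts in every library.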

How the data were processed

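RNA was sequenced from 3 pECDC, 3 iECDC and 3 SB431542-treated libraries, grouped by the sample labels. Per the labels, Bowtie2 2.0.6, TopHat2 2.0.9 and mm9 were used, but the deposited coordinates of all 36 genes equal those of GENCODE M21 on GRCm38. The counting program and its use of strand are not given in the sources used here. The authors deposited raw read counts per gene and FPKM values. The deposited columns of the authors' own DESeq comparisons (fold changes and p-values) were not used. Bases of promoters are from RefSeq (GRCm38.p6). The members and lists were chosen with earlier results of these data known.

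Counts of each pair of groups were fitted over all genes with edgeR 4.0.16 in R 4.3.3 (TMM, filterByExpr with a minimum count of 10 and a minimum total of 15, quasi-likelihood test, Benjamini-Hochberg adjustment over all genes tested, calls at an adjusted p under 0.05). The SE is the log2 fold change divided by the square root of F. At these depths each tested ER gene had at least 247 counts in every library. A gene with at most 3 counts was taken to be at the floor, which covers counting error only. Of the 36 genes all may be named. From the other lists up to 3 genes per list and comparison were named, those with the largest change among genes that passed, did not overlap between groups and had a mean of at least 10 FPKM in the higher group. Atf3, Trib3, Kdelr2, Crtap, Tnnt2, Cd68, Sdc1, the mesenchymal markers and the markers at the floor are named outside this rule, and values of a few genes in these lists are not reported here. Older symbols were matched through RefSeq synonyms. The fits were tested on simulated data. Alternatives used DESeq2 1.42.0, RLE and upper-quartile scaling, other filters, all 9 libraries, the replicate number as a block, limma 3.58.1 on log2(FPKM + 1) and log2(FPKM + 0.1), and each library left out. Leaving out both libraries that stood apart was added after seeing the data.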

Additional observations from a re-analysis of the deposited data

How the results depend on the processing

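For the comparison of iECDCs with pECDCs, the 1 higher ER gene became 0 with all 9 libraries in the fit, with the replicate block and with limma on log2(FPKM + 1) or log2(FPKM + 0.1), and 0 to 2 when 1 library was left out. The 9 lower became 4 with all 9 libraries and 5 to 16 when 1 was left out. For SB431542-treated cells against iECDCs, the 2 higher became 0 with the replicate block, 1 with either limma fit, 6 without both libraries that stood apart and 0 to 5 when 1 was left out. The 7 lower became 3 with the replicate block, 11 without both libraries and 2 to 7 when 1 was left out. For SB431542-treated cells against pECDCs, the 1 higher became 0 with the replicate block and 0 to 7 when 1 was left out, and the 14 lower became 9 with the replicate block and 7 to 22 when 1 was left out. The cause of these changes was not tested, except that leaving out a library leaves fewer samples. The direction reversed for 1 median, that of SB431542-treated cells against iECDCs, which was -0.10. It ranged from -0.16 to 0.02 when 1 library was left out and was 0.02 without SB431542 replicate 2. Without both libraries that stood apart it was -0.07, again negative.

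Over all genes the calls in iECDCs against pECDCs were 2258, and 671 with all 9 libraries and 1036 to 4467 when 1 was left out. In SB431542-treated cells against iECDCs they were 4061, and 8951 without both libraries that stood apart and 1707 to 7001 when 1 was left out. Against pECDCs they were 4881, and 2453 to 9188 when 1 was left out. No ER gene with a call changed sign under any alternative. The study describes no pairing of same-numbered libraries. The correlation of their deviations from the group mean lay between -0.207 and 0.033. With so few libraries, and 1 of them standing apart in some groups, these values cannot settle whether the libraries are paired. Of the ER genes tested, Dnajb9 and Eif2ak3 had the fewest counts, with means of 486 and 509.6 over the 9 libraries.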
